A study of Mus musculus with 12 samples.

Results

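The chemokines Ccl2, Ccl3, Ccl4, Ccl6, Ccl9, Cxcl1, Cxcl10 and Cx3cl1 were followed across 4 groups of mouse hippocampus samples. Their 10 probe sets were those whose platform annotation named exactly 1 gene and that gene was a member, out of 12422 probe sets for 8251 genes. The genes were chosen by their measured values in the mutant and control arrays of these same data. Their own differences between mutant and control mice are therefore given as a description, with no test. RNA levels were read from 12 Affymetrix MG-U74A arrays. Each group had 3 arrays: mutant mice given kainate, mutant mice given saline, control mice given kainate and control mice given saline. According to the title of the series, the mutants lacked CREB and CREM, transcription factors that respond to cAMP and calcium signals. How the genes were disrupted, and in which cells, is not given in the sources used here. All groups were littermate males and females aged 5 to 6 weeks, housed singly and handled beforehand for 5 days. Kainate, a glutamate receptor agonist that evokes seizures, was injected into the peritoneum at 20 mg/kg, and hippocampi were taken after 1 h. Each array was hybridised with a pool of RNA from 3 animals, so p values measure the spread between pools.

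Chemokines are small secreted proteins that attract leukocytes through G protein-coupled receptors, and they are grouped as CC, CXC, C and CX3C by the spacing of conserved cysteines. Microglia, the resident macrophages of the brain, make many of them, and astrocytes and endothelium can make others. Several respond to inflammation through NF-kappa B, while Cx3cl1 is made by healthy neurons and anchored in their membrane.

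The arrays correlated with each other at 0.973 to 0.998 across probe sets. The values of control kainate replicate 3 were less spread out (interquartile range 3.74) than those of the other 11 arrays (4.40 to 4.61). Several results are also given without this array, and those given once can depend on it too. On that array the mean of the genes foreign to the tissue (below) was 3.31, against 2.88 to 3.01 on the other 11. For Creb1, the gene of CREB, the brightest of 3 probe sets read 3.80 to 3.94 in mutants and 3.82 to 4.34 in controls, a difference of -0.11 (SE 0.08, limma adjusted p = 0.63). The brighter Crem probe set read 4.12 to 4.33 in mutants and 4.26 to 4.80 in controls, a difference of -0.29 (SE 0.07, limma adjusted p = 0.141). Whether these probes fall inside the disrupted parts is not given in the sources used here, so they do not check the labels. Of 8 neuron markers, 7 lay above background, with Prox1, a marker of dentate granule cells, below it.

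All values are log2 GCRMA values, which cannot be compared between probe sets as amounts of RNA. To say which members lay near background, a bound of 3.99 was taken, the 90th percentile of the mean levels of 46 probe sets for 38 genes foreign to hippocampus, such as protamines, caseins and muscle or liver genes. Those means spanned 1.05 to 7.93, and 44.3% of all probe sets had no group mean above the bound. By this measure 4 of the 10 member probe sets were near background: Ccl4, both probe sets of Cxcl1 and the dimmer one of Cx3cl1. Just inside the bound was the brighter Cxcl1 probe set, whose highest group mean was 3.42, and just outside were Ccl3 at 4.04 and Cxcl10 at 4.26. With the median of the foreign genes, 2.78, as the bound, 2 probe sets were near background. With the median of all probe sets, 4.32, there were 6, Ccl3 and Cxcl10 being added. Ccl6, Cxcl10 and the brighter Cx3cl1 probe set had all 4 group means above 3.99, Ccl9 had only its 2 mutant means, Ccl2 only its 2 kainate means, and Ccl3 only the mutant saline mean.

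**Figure D1:**
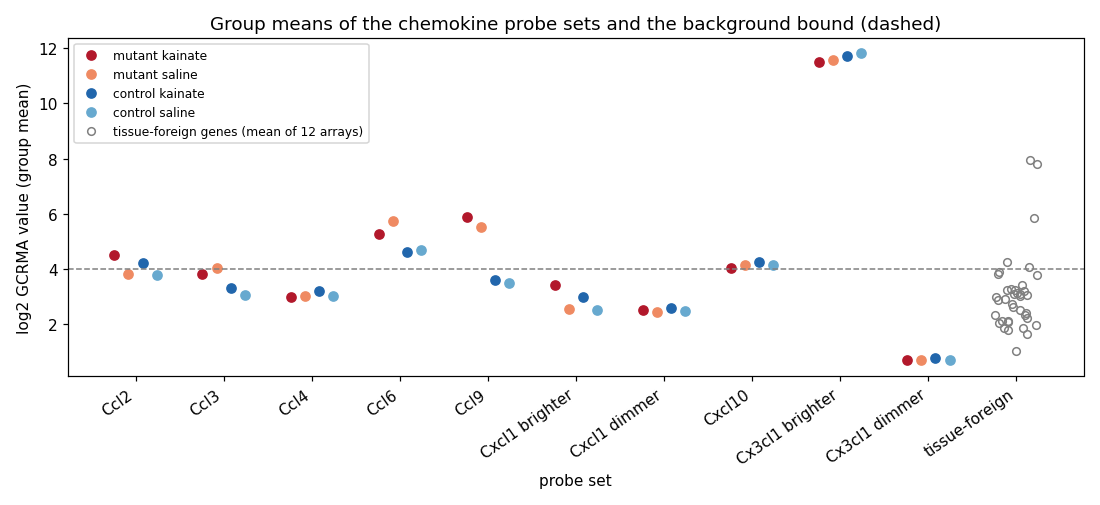
Mean log2 GCRMA value of each chemokine probe set in the 4 groups (filled points) beside the 12-array means of the probe sets of genes foreign to hippocampus (open points). The dashed line is the background bound of 3.99, which Ccl9 exceeds in the mutant groups and lies below in the control groups.

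**Figure D2:**
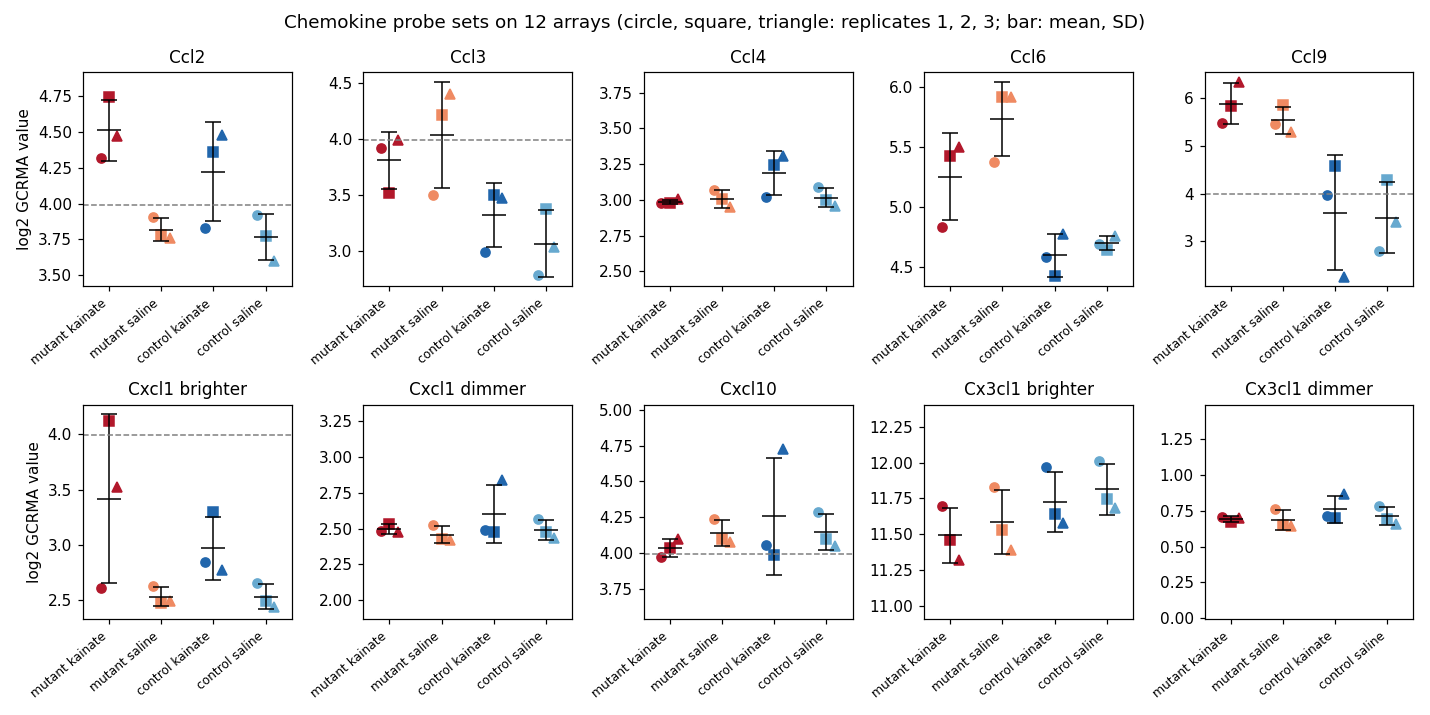
Log2 GCRMA value of every chemokine probe set on each of the 12 arrays, with the group mean and SD (n = 3), on axes that differ between panels and do not start at 0. The dashed line, where it falls within a panel, is the background bound of 3.99. Mutant and control arrays do not overlap within either treatment for Ccl9, Ccl6 and Ccl3.

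Ccl9, Ccl6, Ccl3 and Ccl4 are CC chemokines. In the mouse, Ccl9, Ccl6 and Ccl3 act on Ccr1, a receptor of monocytes and other myeloid cells. Ccl9 read 5.49, 5.83 and 6.35 in mutant kainate arrays and 5.47, 5.85 and 5.29 in mutant saline arrays. It read 3.97, 4.58 and 2.26 in control kainate arrays and 2.80, 4.28 and 3.40 in control saline arrays. All 6 mutant arrays lay above all 6 control arrays, and 4 of the 6 control arrays lay under the background bound. The group means were 5.89 ± 0.43 in mutant kainate, 5.54 ± 0.29 in mutant saline, 3.60 ± 1.20 in control kainate and 3.50 ± 0.74 in control saline arrays (SD, n = 3 each). The mutant minus control difference was 2.29 under kainate (SE 0.54), 2.04 under saline (SE 0.54) and 2.16 averaged (SE 0.38), the last equal to 4.48-fold. Since the control means were under the bound, the fold cannot be read as a ratio of RNA amounts. The control kainate replicate 3 array held the lowest Ccl9 value of all 12. Without it the difference was 1.62 under kainate and 1.83 averaged.

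Ccl6 read 4.84, 5.43 and 5.50 in mutant kainate arrays and 5.38, 5.91 and 5.91 in mutant saline arrays. It read 4.58, 4.43 and 4.78 in control kainate arrays and 4.69, 4.65 and 4.76 in control saline arrays. Mutant arrays again lay above control arrays under both treatments, and all 12 lay above the background bound. The difference was 0.66 under kainate (SE 0.19), 1.03 under saline (SE 0.19) and 0.85 averaged (SE 0.14), equal to 1.80-fold.

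Ccl3 read 3.92, 3.52 and 3.99 in mutant kainate arrays and 3.50, 4.21 and 4.40 in mutant saline arrays. It read 2.99, 3.50 and 3.48 in control kainate arrays and 2.79, 3.38 and 3.03 in control saline arrays. The genotypes did not overlap under either treatment, though the gap under kainate was narrow, and 2 of the 12 arrays exceeded the bound, both from mutant saline mice. The difference was 0.49 under kainate (SE 0.25), 0.97 under saline (SE 0.25) and 0.73 averaged (SE 0.18). Ccl4 stayed between 2.95 and 3.31 on all 12 arrays, under the bound on each. Its kainate arrays were at 2.98, 2.97 and 3.00 in mutants and 3.02, 3.25 and 3.31 in controls, a difference of -0.21 (SE 0.09), which was -0.07 after quantile normalisation.

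The members that were higher in all mutant arrays than in all control arrays numbered 3 under saline, 3 under kainate and 3 under both: Ccl9, Ccl6 and Ccl3. Over all probe sets the share was 3.85% under saline, 4.03% under kainate and 1.3% under both. Lower in all mutant kainate arrays was 1 member, Ccl4, against 4.97% of all probe sets. These genotype differences entered the choice of the members, so nothing is read from the counts. The median of the 8 members, each by its brighter probe set, was 0.20 averaged, against -0.06 over all probe sets. The same choice entered this median, so nothing is read from it either. In bulk tissue, a larger number of cells of a type and more RNA per cell cannot be told apart.

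**Figure D3:**
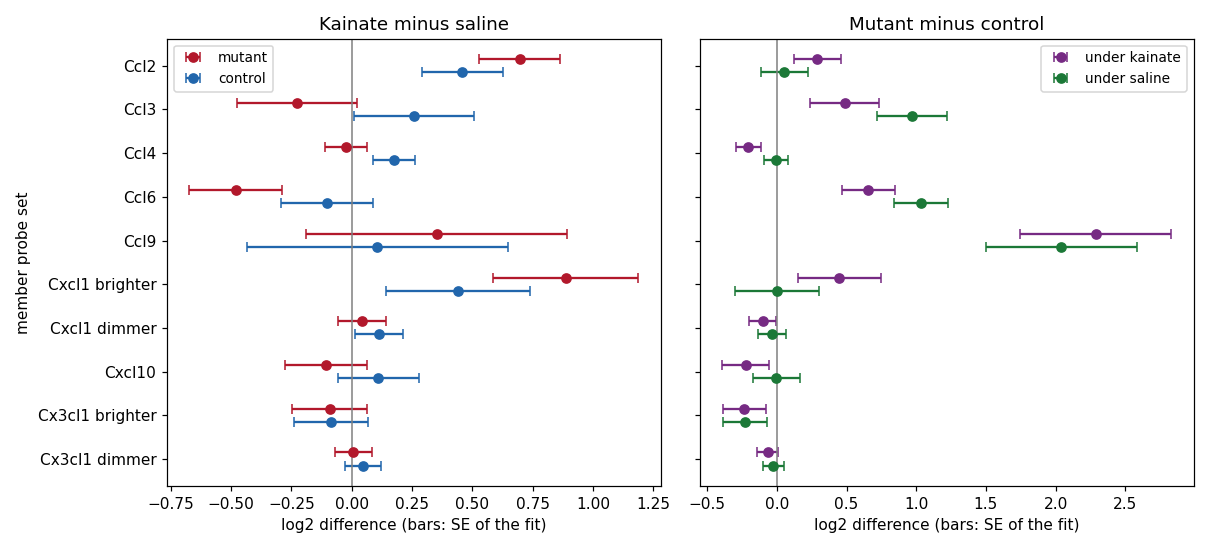
Log2 differences of the member probe sets, kainate minus saline in mutants and controls (left) and mutant minus control under kainate and saline (right), with the SE of the fit over 12 arrays. The genotype differences of Ccl9, Ccl6 and Ccl3 are above 0 under both treatments, and the kainate differences of Ccl2 and the brighter Cxcl1 probe set are above 0 in both genotypes.

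Ccl2, Ccl3, Ccl4, Ccl6 and Ccl9 lie on mouse chromosome 11, Cxcl1 and Cxcl10 on chromosome 5, and Cx3cl1 on chromosome 8. In RefSeq's annotation of GRCm38.p6 the order on chromosome 11 is Ccl9, Ccl6, Ccl3 and Ccl4, with 2 long noncoding RNA genes and a ribosomal protein pseudogene between them that the array did not measure. The 3 members with higher values in mutants were thus adjacent among measured genes, and Ccl4, next to them, was near background. The 10 nearest measured genes outside the stretch, 5 on each side, had averaged genotype differences between -0.35 (Taf15, SE 0.23) and 0.19 (Synrg, SE 0.13). Of these 10, only Ap2b1, Taf15, Ddx52 and Synrg lay above the background bound, and the others could change without a readable difference. Those under the bound included Ccl5, another CC chemokine, at -0.08 (SE 0.06).

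**Figure D4:**
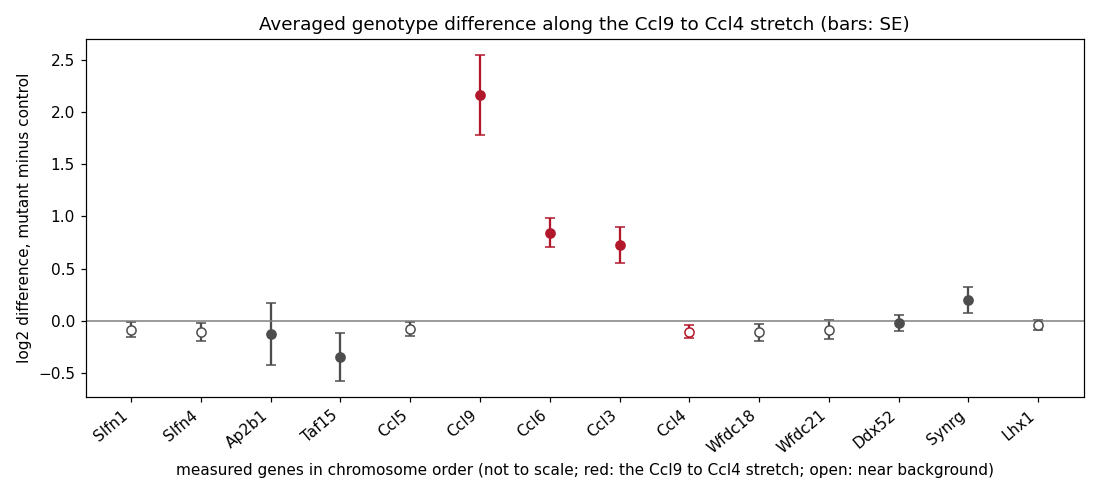
Averaged log2 difference, mutant minus control, with its SE, for the measured genes from Ccl9 to Ccl4 (red) and 5 measured genes on either side (grey), in chromosome order and not to scale. Open points are near background, and Ccl9, Ccl6 and Ccl3 lie above their neighbours.

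Promoter sequences are shown for these 3 genes, because they neighbour each other and differed in the same direction. Cxcl1 is also shown, as it alone matched the core of the CREB motif among the 6 members with a sequence. The sequences are the 250 bases before the start of the gene, from RefSeq, and were found for 6 of the 8 members, Ccl2 and Ccl4 having no entry. Capitals mark matches on either strand to the core of the cAMP response element, to which CREB and CREM bind (TGACG), to the kappa B consensus of NF-kappa B, and to the core of ETS factors such as PU.1 (GGAAGT).
Ccl9 promoter, chr11:83578637-83578886, minus strand, GRCm38.p6: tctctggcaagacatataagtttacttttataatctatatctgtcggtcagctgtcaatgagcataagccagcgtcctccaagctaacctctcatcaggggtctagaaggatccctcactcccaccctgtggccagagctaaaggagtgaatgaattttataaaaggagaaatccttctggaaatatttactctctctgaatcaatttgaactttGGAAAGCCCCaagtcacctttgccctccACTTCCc
Ccl6 promoter, chr11:83593088-83593337, minus strand, GRCm38.p6: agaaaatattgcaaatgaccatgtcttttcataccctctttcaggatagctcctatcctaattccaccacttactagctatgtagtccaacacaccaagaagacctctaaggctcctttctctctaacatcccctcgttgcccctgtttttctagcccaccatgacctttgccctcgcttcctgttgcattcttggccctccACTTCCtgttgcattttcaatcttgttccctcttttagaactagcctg
Ccl3 promoter, chr11:83649379-83649628, minus strand, GRCm38.p6: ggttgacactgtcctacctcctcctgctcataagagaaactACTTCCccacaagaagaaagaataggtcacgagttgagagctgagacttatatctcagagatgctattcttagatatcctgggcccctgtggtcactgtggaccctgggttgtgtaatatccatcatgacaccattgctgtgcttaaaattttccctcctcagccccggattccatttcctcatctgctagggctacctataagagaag
Cxcl1 promoter, chr5:90890995-90891244, plus strand, GRCm38.p6: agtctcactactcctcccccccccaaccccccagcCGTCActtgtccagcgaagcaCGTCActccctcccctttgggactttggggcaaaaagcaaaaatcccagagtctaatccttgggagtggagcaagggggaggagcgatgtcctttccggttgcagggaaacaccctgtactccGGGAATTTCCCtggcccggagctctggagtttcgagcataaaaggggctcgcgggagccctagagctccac
The full cAMP response element (TGACGTCA) was in 0 of the 6 member windows and in 1.55% of 32851 windows of 250 bases for 27025 genes. Its core was in 1 of 6, that of Cxcl1 with 2 matches, and in 17.8% of all windows. The kappa B consensus was in 3 of 6 (Cxcl1, Cxcl10 and Ccl9) and in 7.25% of all windows, the 2 matches in Cxcl1 overlapping each other. The ETS core was in 4 of 6 (Ccl9, Ccl6, Ccl3 and Cxcl10) and in 19.7% of all windows. Over windows of 300 bases, which add 50 bases after the start, the best local alignment of Ccl9 and Ccl6 spanned 74 columns, of which 58 were identical (78.4%), while no other pair of members aligned over more than 30 columns. A match describes the letters in the window and says nothing of binding.

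The kainate comparisons ask which members responded to kainate within 1 h, and in which genotype. By limma's test with Benjamini-Hochberg adjustment over all 12422 probe sets, 0 of the 10 member probe sets passed in mutants, 0 in controls and 0 on average over genotypes. The shares of all probe sets that passed were 0.298%, 0.33% and 0.942% in the same comparisons. At an unadjusted p under 0.05 there were 3 members in mutants (Ccl2, Ccl6 and the brighter Cxcl1 probe set), against 6.28% of all probe sets. There was 1 in controls (Ccl2), against 7.37%, and 2 on average (Ccl2 and the brighter Cxcl1 probe set), against 11.9%. The median kainate difference of the 8 genes was 0.05 on average, against 0.03 over all probe sets.

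Ccl2 attracts monocytes through Ccr2. It read 4.32, 4.74 and 4.47 in mutant kainate arrays and 3.91, 3.78 and 3.76 in mutant saline arrays. In controls it read 3.83, 4.36 and 4.48 with kainate and 3.92, 3.78 and 3.60 with saline. All mutant kainate arrays lay above all mutant saline arrays, as did 4.98% of all probe sets, while in controls 1 kainate array, replicate 1, lay among the saline arrays. Both saline means, 3.82 ± 0.08 in mutants and 3.76 ± 0.16 in controls (SD, n = 3 each), were under the background bound. The kainate minus saline difference was 0.70 in mutants (SE 0.17, limma adjusted p = 0.283) and 0.46 in controls (SE 0.17, limma adjusted p = 0.577). The control value was 0.33 without control kainate replicate 3. On average the difference was 0.58 (SE 0.12, 95% interval 0.31 to 0.84, limma adjusted p = 0.0579). With both saline means under the bound, these differences cannot be read as ratios of RNA amounts.

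This averaged Ccl2 difference stood at the threshold, and 7 of 19 alternatives passed it. The limma adjusted p was 0.0485 with the replicate number as a block, 0.0337 after quantile normalisation and 0.0069 without the control kainate replicate 1 array, where the difference was 0.68. Over all alternatives it ran between 0.0034 and 0.173. Of 9 measured markers of endothelium and blood, 1 rose with kainate on average, 0 fell and 8 did not pass. The share of all probe sets that passed was 0.942%. At an unadjusted p under 0.05 there were 4 of the 9, against 11.9% of all probe sets. The median difference of the 9 was 0.10, against 0.03 over all probe sets. Their differences were above 0 for 7 of the 9, and Vwf at -0.19 and Flt1 at -0.11 were below it. Among those that did not pass, the largest were Cdh5 at 0.50 (SE 0.12), Tek at 0.40 (SE 0.12) and Cldn5 at 0.35 (SE 0.14). The mean of the 9 was 6.78 to 6.93 in mutant kainate, 6.56 to 6.67 in mutant saline, 6.60 to 6.72 in control kainate and 6.45 to 6.57 in control saline arrays. Of them 8 lay above the bound and Kdr did not. The one that passed, Hba-a1, a haemoglobin chain of red cells, rose by 0.53 on average (SE 0.10, limma adjusted p = 0.0372). Their part in the Ccl2 difference was not tested. Markers of monocytes and neutrophils had mean values of 2.96 to 3.12, 2.99 to 3.08, 2.88 to 3.33 and 2.90 to 2.98 in the same order of groups, with Ccr2, S100a8, Mpo and 5 others of the 11 at or under the bound.

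Cxcl1 and Cxcl10 are CXC chemokines, Cxcl1 attracting neutrophils through Cxcr2 and Cxcl10 attracting T cells through Cxcr3 after induction by interferon. The brighter Cxcl1 probe set read 2.61, 4.12 and 3.52 in mutant kainate arrays and 2.63, 2.47 and 2.50 in mutant saline arrays. It read 2.85, 3.30 and 2.77 in control kainate arrays and 2.66, 2.49 and 2.44 in control saline arrays. In controls all kainate arrays lay above all saline arrays, as did 2.29% of all probe sets, while in mutants replicate 1 of the kainate arrays lay among the saline arrays. Only 1 of the 12 arrays, mutant kainate replicate 2, exceeded the background bound. The kainate difference was 0.89 in mutants (SE 0.30, limma adjusted p = 0.57) and 0.44 in controls (SE 0.30, limma adjusted p = 0.729). On average it was 0.66 (SE 0.21, limma adjusted p = 0.207). Without mutant kainate replicate 1 the difference was 1.29 in mutants (limma adjusted p = 0.0298) and 0.87 on average (limma adjusted p = 0.0174), while without replicate 2 it was 0.53 in mutants. In controls it was 0.28 without control kainate replicate 2. The dimmer Cxcl1 probe set stayed between 2.42 and 2.84 and had an averaged kainate difference of 0.08 (SE 0.07).

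Cxcl10 read 3.97, 4.03 and 4.09 in mutant kainate arrays, 4.24, 4.10 and 4.08 in mutant saline, 4.05, 3.99 and 4.73 in control kainate, and 4.29, 4.10 and 4.05 in control saline arrays. The groups overlapped, and the one high value came from control kainate replicate 3, the array that stood apart. Across the 12 arrays Cxcl10 correlated at 0.979 with the mean of the foreign genes, and at 0.916 over the 11 others, as a description. Its averaged kainate difference was 0.00 (SE 0.12), with a 95% interval between -0.26 and 0.27, and -0.12 without control kainate replicate 3.

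For Ccl9, Ccl6 and Ccl3 the kainate and saline arrays overlapped in each genotype, the arrays being taken as unpaired. The kainate difference of Ccl9 was 0.35 in mutants (95% interval -0.84 to 1.55), or 0.12 without mutant kainate replicate 3, and 0.11 in controls (-1.09 to 1.30). In controls it turned to -0.38 without control kainate replicate 2 and became 0.78 without replicate 3. Ccl6 differed by -0.48 in mutants (SE 0.19, limma adjusted p = 0.703) and by -0.10 in controls (SE 0.19). Without mutant kainate replicate 1, the lowest mutant array, the Ccl6 difference in mutants was -0.27. Ccl3 differed by -0.23 in mutants and 0.26 in controls (SE 0.25 each). Leaving out 1 array at a time moved these values between -0.50 (without mutant saline replicate 1) and -0.05 (without mutant saline replicate 3) in mutants. In controls they lay between 0.12 (without control saline replicate 1) and 0.42 (without control kainate replicate 1).

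The interaction, the kainate difference in mutants minus that in controls, was called for 0 member probe sets and for 0 of all 12422 in limma, where the share passing was 0%. At an unadjusted p under 0.05 there were 0 members, against 107 probe sets in all (0.861%). The members' adjusted p values ran between 0.939 and 0.997. For Ccl9 the interaction was 0.25 with a 95% interval of -1.45 to 1.94, so a difference in response of over 1 on the log2 scale in either direction was within the error. It turned to -0.43 without control kainate replicate 3 and became 0.74 without control kainate replicate 2.

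Cx3cl1 is the membrane-bound ligand of Cx3cr1, the receptor through which neurons signal to microglia. Its brighter probe set read 11.70, 11.46 and 11.32 in mutant kainate arrays and 11.83, 11.53 and 11.39 in mutant saline arrays. It read 11.97, 11.64 and 11.58 in control kainate arrays and 12.01, 11.75 and 11.68 in control saline arrays. It ranked at percentile 98.6 of all probe sets, the groups overlapped, and replicate 1 was the highest array in each of the 4 groups. At each replicate number the mutant array lay below the control array of the same treatment. The kainate array likewise lay below the saline array of the same genotype, though replicate numbers were not taken to pair arrays. The mutant minus control difference was -0.24 under kainate and -0.23 under saline (SE 0.15 each), and the averaged kainate difference was -0.09 (SE 0.11, limma adjusted p = 0.90). The dimmer probe set lay at percentile 0.886, with values of 0.64 to 0.87, far under the background bound.

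Of 30 other chemokines on the list, 17 were measured and 13 of these were near background, among them Ccl5, Ccl7, Ccl12 and Cxcl2. Ccl17, Ccl25, Cxcl12 and Cxcl14 lay above the bound, and 0 of 17 passed the limma test in any kainate comparison or in the interaction. At an unadjusted p under 0.05 there were 1 in mutants, 2 in controls, 1 on average and 0 in the interaction, where the shares of all probe sets were 6.28%, 7.37%, 11.9% and 0.861%. Cxcl14, a chemokine made by neurons among other cells, averaged 8.87 and 8.48 in mutant kainate and mutant saline arrays, and 8.69 and 8.34 in control kainate and control saline arrays. Its averaged kainate difference was 0.37 (SE 0.10, limma adjusted p = 0.156). Of 24 receptors 20 were measured, and 0 passed in limma in these comparisons (at an unadjusted p under 0.05, 1 in mutants, 0 in controls, 1 on average and 1 in the interaction). Ackr1, Ackr3, Ccr6 and Cxcr4 were above the bound. The receptors named above for single members, Ccr1, Ccr2, Cxcr2, Cxcr3 and Cx3cr1, all lay at or under it.

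Of 19 measured inflammatory cytokines and NF-kappa B genes, 2 rose with kainate on average, 0 fell and 17 did not pass, with a median of 0.05. The share of all probe sets that passed was 0.942%. Nfkbiz, an inducible regulator of NF-kappa B, averaged 7.34 in mutant kainate, 3.41 in mutant saline, 6.14 in control kainate and 3.57 in control saline arrays. It rose by 3.25 on average (SE 0.38, limma adjusted p = 0.0018) and by 3.93 in mutants (SE 0.54, limma adjusted p = 0.011). In controls its difference was 2.57 (SE 0.54, limma adjusted p = 0.147), and the interaction, 1.36 (SE 0.77, limma adjusted p = 0.939), did not pass. Both Nfkbiz saline means were under the background bound, so these differences cannot be read as ratios of RNA amounts. Cd14, a coreceptor for lipopolysaccharide on myeloid cells, rose by 0.95 on average (SE 0.15, limma adjusted p = 0.0139). Tnf, Il1a, Il1b and Il6, which induce chemokines, were near background in all groups. In the averaged genotype comparison 1 of the 19 was higher in mutants, 0 were lower and 18 did not pass, with a median of -0.09. The share of all probe sets that passed there was 0.612%.

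Microglia markers moved with genotype, as did Ccl9, Ccl6 and Ccl3. Of 16 measured markers 8 were higher in mutants in the averaged comparison by limma, 0 were lower and 8 did not pass, with a median difference of 0.76 against -0.06 over all probe sets. The share of all probe sets that passed was 0.612%. Under kainate 7 markers were higher and under saline 5, where 0.354% and 0.137% of all probe sets passed, in that order. Tyrobp, a signalling adaptor, differed by 1.76 (SE 0.12), Mpeg1, a pore-forming protein, by 1.43 (SE 0.10), and the complement subunits C1qc and C1qb by 1.24 (SE 0.15) and 1.17 (SE 0.09). Csf1r, the receptor that microglia need to survive, differed by 0.70 (SE 0.10). Among those that did not pass, Cd68 differed by 1.35 (SE 0.32), Aif1 by 0.43 (SE 0.27) and Ptprc by -0.02 (SE 0.11), all above the bound. The markers Cx3cr1, Itgam, Fcer1g, Fcgr3 and Spi1 were near background, with differences between -0.07 (Fcgr3) and 0.19 (Cx3cr1). The mean of the 16 markers was 6.27 to 6.48 in mutant kainate, 6.15 to 6.36 in mutant saline, 5.60 to 5.82 in control kainate and 5.53 to 5.59 in control saline arrays, so that the genotypes did not overlap. Within a genotype, correlations with this mean rest on few arrays of both treatments, so no direction is read from them. Over the 6 mutant arrays the correlation was 0.70 for Ccl9, -0.46 for Ccl6 and -0.44 for Ccl3, and over the 6 control arrays it was -0.56, 0.25 and 0.44 in that order, as a description. The control values rest on control kainate replicate 3, which had the highest marker mean and the lowest Ccl9 value of the 6. Over the other 5 control arrays they were 0.35, -0.65 and 0.03. The part of microglia in the chemokine differences was not tested.

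**Figure D5:**
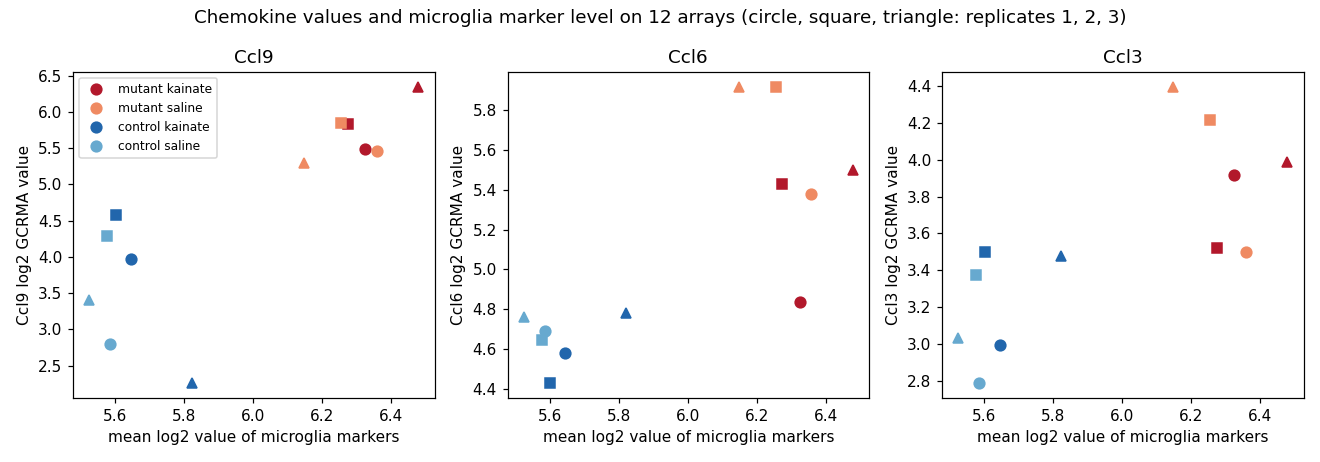
Log2 GCRMA value of Ccl9, Ccl6 and Ccl3 against the mean log2 value of 16 microglia markers on each of the 12 arrays. The arrays form 2 clusters by genotype, mutant arrays at 6.15 to 6.48 and control arrays at 5.53 to 5.82 on the horizontal axis, and no line is drawn through them.

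The genes whose values over the 12 arrays were most like those of Ccl9 were Tmem176b (Pearson r = 0.94), Prdx4 (0.93), Pafah1b3 (0.93), Plat (0.92) and Anp32b (0.91), given as a description. Without control kainate replicate 3 these r were between 0.89 and 0.92. For Ccl6 they were Npc2 (0.95), Ap2m1 (0.93) and Id3 (0.91), and for Ccl3 they were Isoc1 (0.90), Lyz2 (0.88) and Ctsl (0.88). Lyz2, a lysozyme of myeloid cells, was also 1.41 higher in mutants on average (SE 0.22). Ccl9 and Ccl6 themselves correlated at 0.67 over the 12 arrays and at -0.10 after each group's mean was subtracted. For Ccl2 the nearest genes were Aldh2 (0.95), Myc (0.94) and Ptprz1 (0.91), and for the brighter Cx3cl1 probe set they were Git1 (0.96), Eif3k (0.95) and Icam5 (0.92). Those of Cxcl10, Rex2, Klhdc4 and Dpagt1, each reached 1.00 after rounding, and Dpagt1 itself was near background.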

How the data were processed

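Hippocampal RNA was hybridised to 12 Affymetrix MG-U74A arrays, each a pool of 3 animals. The values deposited by the authors are log2 values from GCRMA, run in R 2.4.1 per the submitters' processing notes. GCRMA subtracts background by probe sequence, normalises and summarises probes, which leaves dim probe sets with compressed differences. The GCRMA version and the set of arrays normalised jointly are not given in the sources used here. After 66 control probe sets were left out, 12422 remained, and no filter on level was used.

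The platform annotation gave 1 symbol to 10833 probe sets, several to 396 and none to 1193. Of the first, 10817 were found by Entrez identifier in RefSeq's GRCm38.p6 annotation. Where a gene of a list had several probe sets, the one with the highest mean was used. 

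The 12 arrays were fitted jointly in limma 3.58.1 (R 4.3.3), each group having its own mean (8 residual, 2.48 prior degrees of freedom). Two-sided p values were adjusted by Benjamini-Hochberg over all 12422 probe sets, with a threshold of 0.05. Probe sequences were not used here, so shared hybridisation between related chemokines was not tested. The number of arrays limits the precision.

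The members, gene lists, background bound and tests were chosen with earlier results of these data known. Named genes were the members, genes of a list that passed the threshold, up to 5 per list and comparison, and the 3 genes (5 for Ccl9) with the highest Pearson r with a member not near background. Names given outside this rule (levels or differences of list genes that did not pass, neighbours on the chromosome, Creb1 and Crem) were taken after values were seen. The alternatives were the replicate number as a block, replicate 1 as a batch, replicates 2 and 3 only, quantile normalisation, median centring, an above-median filter, a trended robust prior, only the arrays compared, array weights and leaving out each array.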

Additional observations from a re-analysis of the deposited data

How the results depend on the processing

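The number of arrays, 3 per group, limits the precision, and a member under the bound of 3.99 could change without a readable difference. Of 792 kainate and interaction values of single members under the alternatives, 776 stayed on the same side of the threshold, 55 of them with the opposite sign. The other 16, of Ccl2, Ccl6 and the brighter Cxcl1 probe set, passed it with the same sign. Genotype values of members had no threshold: of 599, 574 kept their sign, and 6 of Ccl4, Cxcl10 and the dimmer probe sets moved by more than the spread of replicates. Causes were not tested.

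Members passing the threshold, in place of 0, numbered 1 with replicates 2 and 3 only, 3 with array weights (estimated gene by gene) and 0 to 1 leaving out each array for kainate in mutants. For kainate on average they numbered 1 with the replicate block, replicate 1 as a batch, quantile normalisation or the trended prior, 2 with replicates 2 and 3 only, 3 with array weights and 0 to 1 leaving out each array. Members near background were 2 with the median of the foreign genes.

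Probe sets passing in all, for kainate in controls (41), were 146 with replicates 2 and 3 only, 22 with only the arrays compared, 380 with array weights and 27 to 56 leaving out each array. For kainate in mutants (37) they were 64 with replicate 1 as a batch, 94 with replicates 2 and 3 only, 1619 with array weights and 26 to 51 leaving out each array. For kainate on average (117) they were 245 with the replicate block, 333 with the batch, 778 with replicates 2 and 3 only, 62 with median centring, 2036 with array weights and 52 to 284 leaving out each array, 284 without control kainate replicate 1. The interaction (0) gave 8 with array weights and 0 to 5 leaving out each array, 5 without control kainate replicate 3. For genotype under saline (17) they were 30 with the replicate block, 38 with the batch, 2 with replicates 2 and 3 only, 680 with array weights and 8 to 20 leaving out each array. For genotype under kainate (44) they were 67 with the replicate block, 77 with the batch, 10 with replicates 2 and 3 only, 20 with median centring, 5 with only the arrays compared, 99 with array weights and 12 to 38 leaving out each array. For genotype on average (76) they were 124 with the replicate block, 140 with the batch, 47 with replicates 2 and 3 only, 478 with array weights and 41 to 103 leaving out each array.

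The replicate numbers were not taken to pair arrays. Deviations from group means correlated at 0.368 to 0.848 between replicate 1 arrays, 0.302 to 0.583 between replicate 2 arrays and -0.0109 to 0.621 between replicate 3 arrays, against -0.722 to 0.568 between arrays of different number. With the replicate block the adjusted p of Ccl6 for kainate in mutants was 0.301, against 0.703 without it, and that of the brighter Cx3cl1 probe set for kainate on average was 0.517, against 0.90. Member probe sets with a mean under the median of all probe sets, Ccl2, Ccl3 and Cxcl10 among them, gave no value under the above-median filter.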

Other observations

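The marker lists of other cell types had median genotype differences closer to 0 than that of microglia, 0.76. Such a median depends on how many markers of a list lay above background. In the averaged comparison 0.612% of all probe sets passed. Of 8 astrocyte markers measured, 7 lay above the background bound (Vim did not) and 1 was higher in mutants in the averaged comparison, with a median difference of 0.15. The 1 that passed, Gfap, differed by 1.62 (SE 0.21), more than the microglia median. Of 8 hippocampal neuron markers 1, Wfs1 at -1.04 (SE 0.14), was lower in mutants, and the median of the 8 was -0.16. The mean of the neuron markers was 8.47 to 8.58 in mutant kainate, 8.53 to 8.72 in mutant saline, 8.62 to 8.98 in control kainate and 8.84 to 8.99 in control saline arrays. Of 5 choroid plexus markers 0 passed in limma in any comparison. At an unadjusted p under 0.05 there was 1 for kainate in controls, 1 for kainate on average and 1 in the interaction. The shares of all probe sets there were 7.37%, 11.9% and 0.861%. The mean of the 5 was 6.37 to 7.26, 6.12 to 7.30, 6.01 to 6.94 and 6.85 to 6.96 in the same order of groups. Folr1, a folate receptor of the choroid plexus, had a kainate difference of -0.13 in mutants and -1.03 in controls (SE 0.28 each), the control value with a limma adjusted p of 0.354. Of 11 monocyte and neutrophil markers 1, Lyz2, was higher in mutants, 3 lay above the bound, and the median of the 11 was -0.08. Of 9 endothelium and blood markers 0 passed in the averaged genotype comparison, with a median of 0.16.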
